A study of Mus musculus with 8 samples.

Results

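The genes of the Myc, Max and Mxd network were followed in mouse embryonic stem cells (ESCs) with and without Dax1. The network was taken as the 10 genes Myc, Mycn, Mycl, Max, Mxd1, Mxd3, Mxd4, Mxi1, Mnt and Mlx, chosen by name, out of the 52550 genes listed for each library. All 10 were detected and all 10 passed the filter on low counts, which kept 20749 genes.

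Myc, Mycn and Mycl encode basic helix-loop-helix leucine zipper proteins that bind DNA as dimers with Max, mostly at the E-box CACGTG, and raise transcription of genes for ribosome production, metabolism and the cell cycle. Mxd1, Mxd3, Mxd4, Mxi1 and Mnt compete for the same partner and recruit Sin3 and histone deacetylases, which lowers transcription from the same sites. Mlx is a Max-like partner of Mxd1, Mxd4, Mnt and the glucose-responsive factors Mlxip and Mlxipl. In ESCs, Myc and Mycn are known for supporting proliferation and self-renewal.

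Control ESCs and Dax1KO ESCs were each grown in 2i/LIF or in LIF/serum, all at passage 3, which gave 4 groups of 2 libraries. The 2i/LIF medium was N2B27 with the MEK inhibitor PD0325901 at 1 µM, the GSK3 inhibitor CHIR99021 at 3 µM and LIF at 10 ng/ml, and the LIF/serum medium was DMEM with 15% FBS and LIF at 10 ng/ml. The Dax1KO ESCs carried a lentiviral Cas9 construct with a guide near the start codon of Dax1, were selected with zeocin, came from colonies picked in 2i/LIF, and were moved to LIF/serum from there. The study names clone Dax1KO-7 for its functional experiments and calls the comparator of the sequencing wild-type ESCs, but does not state the clone for the sequenced libraries, and effects of a clone or of the construct cannot be told apart from those of the genotype. The labels do not say that replicates were separate cultures, so the P values measure only the spread between these libraries, which may be technical.

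Total counts lay between 35911384 and 37286251 per library. The deleted gene, listed as Nr0b1, had 456 and 300 counts in control ESCs and 0 and 0 in Dax1KO ESCs in 2i/LIF, and 5095 and 4689 against 14 and 6 in LIF/serum, so the labels held. The 9 ESC markers were detected in every group, with a summed level of 4990 to 6130 CPM. The summed level of 8 primitive endoderm markers was 241 to 280 CPM in 2i/LIF control, 273 to 325 in 2i/LIF Dax1KO, 417 to 760 in LIF/serum control and 1400 to 1830 in LIF/serum Dax1KO. From LIF/serum control to LIF/serum Dax1KO, 8 fibroblast or feeder markers went from 15.8 to 17.2 up to 51 to 54.1, with Col3a1, Lum and Postn at 0 in both groups, and 4 neural ectoderm markers from 44.9 to 47.4 down to 28.1 to 28.7. In bulk RNA, fewer cells of a type and less RNA per cell cannot be told apart.

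The E-box sequences near the network's own start sites are shown because these are the letters that Myc and Max dimers read. Promoters, taken as 250 bases before to 50 bases after a start in RefSeq on GRCm38.p6, were found for 9 of the 10 genes, and Myc had no entry. Of these 9 genes, 4 held CACGTG, a palindrome that reads the same on both strands, which is 44.4%, beside 2187 of 27025 genes with a promoter in the same table, or 8.09%. The windows below are 30 bases long, 5′ to 3′ on the strand of the gene, with the E-box in capitals.
Max (chr12:76962234-76962263, minus strand, E-box from base -3 relative to the start): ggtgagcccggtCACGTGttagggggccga
Mxd4 (chr5:34187912-34187941, minus strand, from base -219): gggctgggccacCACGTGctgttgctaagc
Mnt (chr11:74830789-74830818, plus strand, from base -123): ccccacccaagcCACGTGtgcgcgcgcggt
Mlx (chr11:101087238-101087267, plus strand, from base -40): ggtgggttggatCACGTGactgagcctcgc
By the RefSeq starts, the E-box of Max lay across its start and those of Mxd4, Mnt and Mlx lay before theirs. The RefSeq start of Max lies upstream of its GENCODE gene (chr12:76937269-76962201, minus strand), so by GENCODE its E-box lay wholly before the start. A match describes the letters only, and the promoters of Mycn, Mycl, Mxd1, Mxd3 and Mxi1 had none in this window. The share was 8 of 39 for a list of genes that Myc is known to induce (20.5%), 3 of 28 for partners and cofactors of the network (10.7%), 1 of 6 for genes repressed with Miz1 (16.7%) and 1 of 5 for targets of Mlx (20%).

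Levels were first compared between genes per length, as CPM per kilobase of exon, where CPM is a count scaled by TMM to a library of standard size. Mycn was highest of the 10 in 2i/LIF control (39.4 ± 2.23, SD, n = 2), 2i/LIF Dax1KO (34.9 ± 0.736) and LIF/serum control (74.3 ± 0.498). In LIF/serum Dax1KO it came second at 26.7 ± 1.09, behind Mlx, and the libraries of these neighbours overlapped. This place depends on the length used: per kilobase of the longest transcript, Max came first in LIF/serum Dax1KO (43.5 and 39.2), followed by Mycn (33.9 and 32.0) and Mlx (23.9 and 32.3), while Mycn stayed first in the other groups. Myc was the lowest of the 10 in both 2i/LIF groups, at 0.612 ± 0.214 in control and 0.576 ± 0.109 in Dax1KO, and ranked 4 in LIF/serum control at 17.8 ± 0.121 and 5 in LIF/serum Dax1KO at 11.1 ± 3.78. Mycl stood at 8.44 ± 0.926 in 2i/LIF control and at 4.02 ± 0.201 to 5.13 ± 0.143 in the other groups. Max, the shared partner, ranked 2 or 3 in every group per kilobase of exon, from 16.7 ± 3.65 in 2i/LIF Dax1KO to 24.8 ± 2.29 in LIF/serum control.

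Of the genes that compete with Myc, Mxd3, Mxi1 and Mnt had group means from 6.88 to 14.2 on this scale, while Mxd4 lay between 1.17 and 2.32 and Mxd1 between 0.796 and 1.82. Down the order of levels, neighbouring genes had overlapping libraries in 3 of 9 pairs in each 2i/LIF group, in 0 of 9 in LIF/serum control and in 4 of 9 in LIF/serum Dax1KO. In 2i/LIF control the pairs that overlapped were Mxd3 and Mnt, Mxi1 and Mycl, and Mxd1 and Myc. In 2i/LIF Dax1KO they were Mnt and Mlx, Mlx and Mxd3, and Mxd4 and Mxd1. In LIF/serum Dax1KO they were Mlx and Mycn, Mxd3 and Myc, Myc and Mxi1, and Mxi1 and Mnt.

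**Figure D1:**
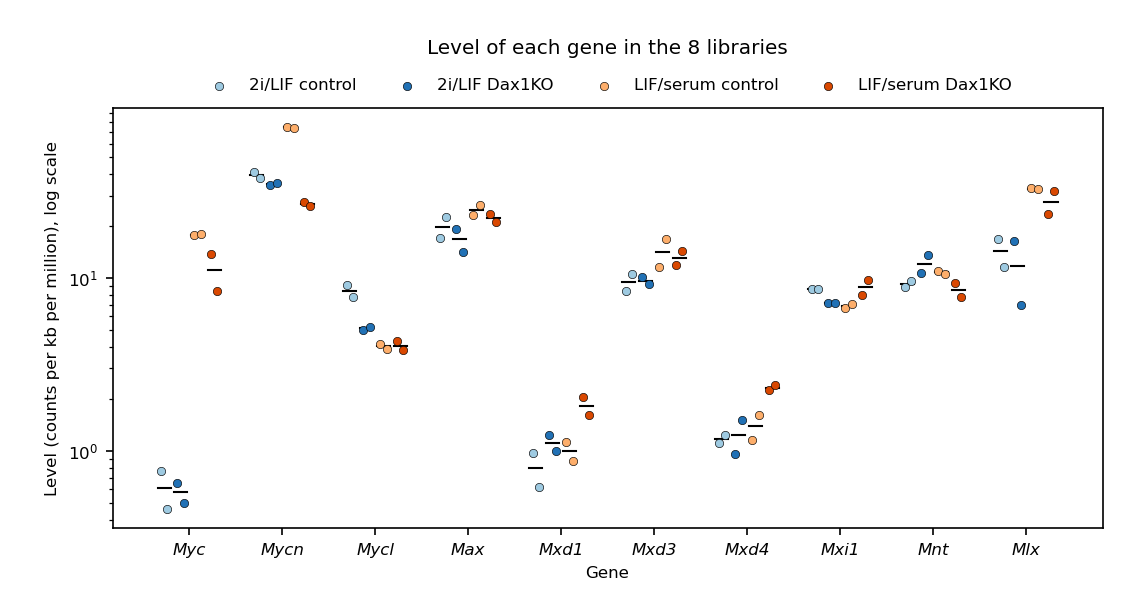
Level of each of the 10 genes (vertical axis, CPM per kilobase, log scale) in each of the 8 libraries; points are libraries and bars the mean of the 2 libraries of a group. Myc sits below 1 in the 4 libraries in 2i/LIF, and Mycn is highest in LIF/serum control and lowest in LIF/serum Dax1KO.

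The summed level of Myc, Mycn and Mycl was 50.8 and 46.1 in the 2i/LIF control libraries, 40.1 and 41.2 in 2i/LIF Dax1KO, 96.6 and 95.7 in LIF/serum control, and 45.6 and 38.2 in LIF/serum Dax1KO. Both LIF/serum control libraries thus stood above the other 6, and LIF/serum Dax1KO overlapped 2i/LIF Dax1KO. The summed level of Mxd1, Mxd3, Mxd4, Mxi1 and Mnt was 28.0 to 36.8 over all 8 libraries. The ratio of these sums was 2.83 ± 0.318 (SD, n = 2) in LIF/serum control, 1.66 ± 0.223 in 2i/LIF control, 1.30 ± 0.0437 in 2i/LIF Dax1KO and 1.21 ± 0.208 in LIF/serum Dax1KO. Mycn made up 77.3% and 77.4% of the Myc family sum in the LIF/serum control libraries and 60.4% and 68.0% in LIF/serum Dax1KO, while Myc made up 18.3% and 18.7% against 30.2% and 22.0%. In 2i/LIF the share of Myc was 1.00% to 1.63%, and that of Mycn 80.6% to 86.1%. These sums and shares are descriptions of transcripts, with no test, and give no measure of protein.

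**Figure D2:**
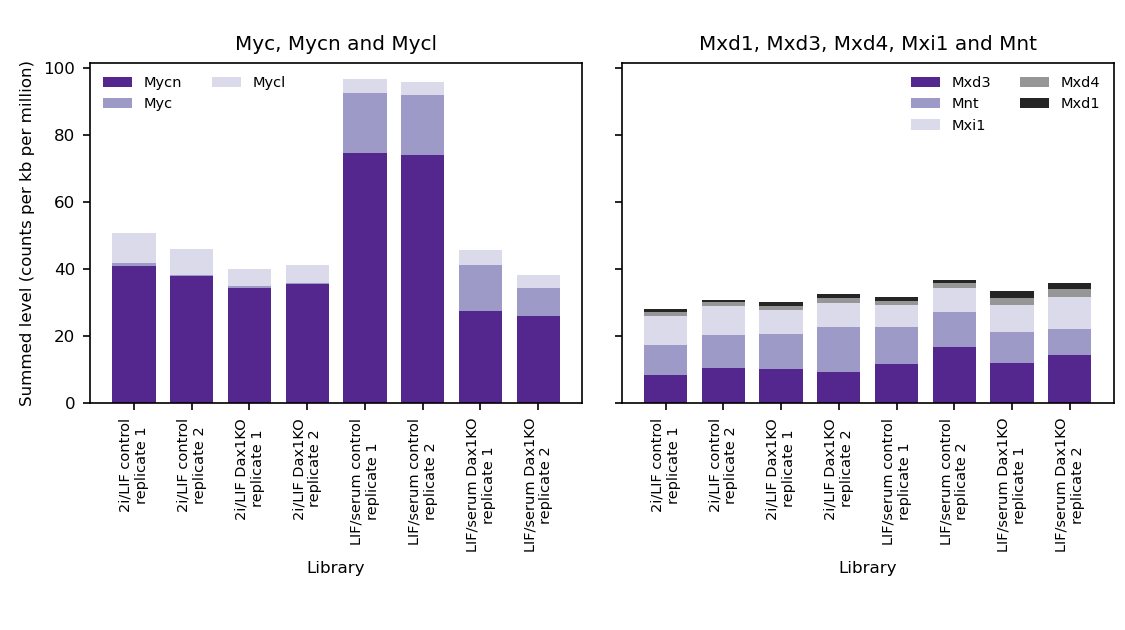
Stacked levels (CPM per kilobase, from 0) of the Myc family on the left and of the Mxd genes, Mxi1 and Mnt on the right, with 1 bar for each library. The left sum is 95.7 and 96.6 in LIF/serum control and 38.2 to 50.8 in the other 6 libraries, and the right sum is 28.0 to 36.8 throughout.

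The knockout was then compared with the control in each medium. Counts per gene in the text below are normalized counts, scaled between libraries by TMM, and are not per length. A gene was called when the quasi-likelihood test of edgeR, adjusted over the 20749 genes by the Benjamini-Hochberg method, gave an adjusted P of at most 0.05 and the fold change was at least 1.2, and every adjusted P is from this fit of all 8 libraries unless the sentence names another fit or a library left out. Log2 fold changes are given with their standard error.

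In LIF/serum, Mycn fell in Dax1KO ESCs. Its normalized counts were 9044 and 8958 in control and 3331 and 3144 in Dax1KO. The groups were far apart compared with the distance between replicates. The Dax1KO mean was 0.360 times the control mean, a log2 fold change of -1.48 ± 0.10 with an adjusted P of 0.000883, and Mycn was lower in 2 of 2 Dax1KO libraries. It was the only one of the 10 genes called in this comparison (10%), in which 14.7% of all genes were called, 8.87% higher and 5.78% lower. A count of 1 in 10 is near that background.

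Myc had 1766 and 1783 normalized counts in LIF/serum control and 1372 and 838 in LIF/serum Dax1KO. Both Dax1KO libraries lay below both controls, with a wide gap between the Dax1KO libraries themselves. The log2 fold change of -0.68 ± 0.28 (95% interval -1.32 to -0.05) had an unadjusted P of 0.038 and an adjusted P of 0.138, so Myc was not called. Mycl had 618 and 576 normalized counts in control and 639 and 567 in Dax1KO. These libraries overlapped, and the log2 fold change was 0.01 ± 0.15 (95% interval -0.33 to 0.36, adjusted P 0.969).

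In 2i/LIF, Mycl was the gene called lower in Dax1KO ESCs, and the call was fragile. It had 1349 and 1154 normalized counts in control and 746 and 776 in Dax1KO. The groups did not overlap, and the Dax1KO mean was 0.608 times the control mean. The log2 fold change was -0.72 ± 0.15 with an adjusted P of 0.0450. Leaving out any 1 of the 8 libraries kept the log2 fold change within -0.81 to -0.60, but the adjusted P rose to between 0.0503 and 0.245, so the call was lost each time. This was 1 of the 10 genes (10%), beside 3.16% of all genes called in 2i/LIF, 1.51% higher and 1.65% lower.

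Mycn in 2i/LIF had 4961 and 4579 normalized counts in control and 4167 and 4293 in Dax1KO. Both Dax1KO libraries were below both controls, but the log2 fold change of -0.17 ± 0.10 was not called (adjusted P 0.433). Myc, at 76.2 and 46.0 normalized counts in control and 65.2 and 49.8 in Dax1KO, overlapped between groups (log2 fold change -0.09 ± 0.33, adjusted P 0.942). The 95% interval of -0.85 to 0.68 includes changes of 1.2-fold in either direction.

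The difference of the knockout effect between media was tested directly for each gene. For Mycn, the effect in LIF/serum minus that in 2i/LIF was -1.30 ± 0.14 on the log2 scale, with an adjusted P of 0.00876. It was called by the adjusted P alone, as were 2.87% of all genes, 2.05% higher and 0.824% lower, and Mycn was the only 1 of the 10 (10%). Without 2i/LIF Dax1KO replicate 1 the difference was -1.32 with an adjusted P of 0.0596, and without 2i/LIF Dax1KO replicate 2 it was -1.28 with an adjusted P of 0.0582. For Mycl the difference was 0.73 ± 0.21 with an adjusted P of 0.111, and for Myc it was -0.60 ± 0.43 with an adjusted P of 0.514.

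**Figure D3:**
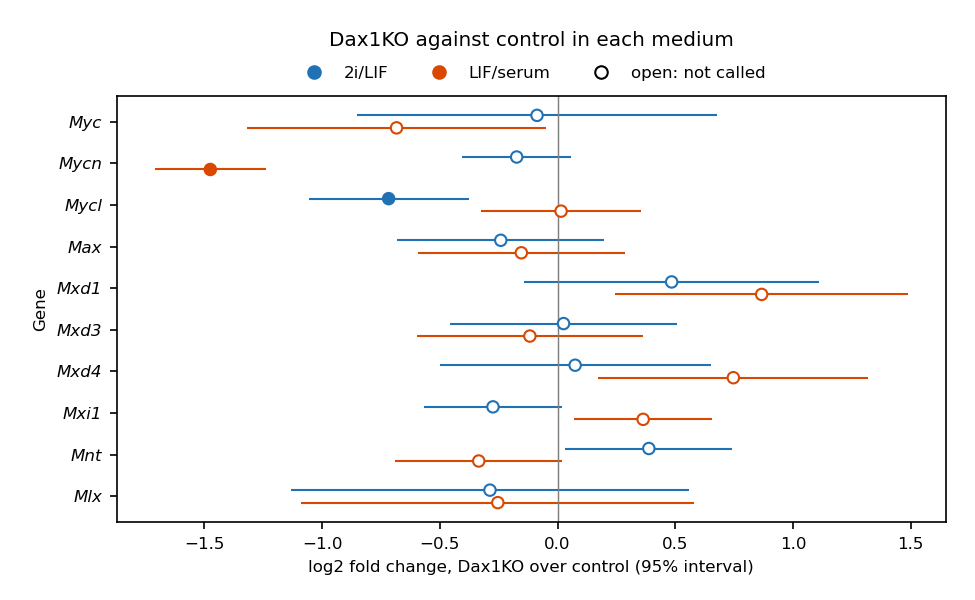
Log2 fold change of each gene, Dax1KO over control, in 2i/LIF and in LIF/serum; bars are 95% intervals of edgeR's quasi-likelihood fit and filled points are called genes. The filled points are Mycl in 2i/LIF at -0.72 and Mycn in LIF/serum at -1.48.

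Max had 2242 and 2978 normalized counts in 2i/LIF control, 2549 and 1867 in 2i/LIF Dax1KO, 3068 and 3496 in LIF/serum control and 3104 and 2796 in LIF/serum Dax1KO. Control and Dax1KO libraries overlapped in both media. The log2 fold change was -0.24 ± 0.19 (95% interval -0.68 to 0.20, adjusted P 0.592) in 2i/LIF and -0.15 ± 0.19 (95% interval -0.59 to 0.29, adjusted P 0.632) in LIF/serum. Relative to the Myc family sum, the level of Max per kilobase of exon was 0.240 and 0.276 in the LIF/serum control libraries and 0.515 and 0.554 in LIF/serum Dax1KO. The size of this ratio depends on the length used, since Max has 3598 bases of exon but 1942 in its longest transcript.

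Among the repressive partners of Max, 0 of the 5 genes were called by genotype in either medium, where 3.16% of all genes were called in 2i/LIF and 14.7% in LIF/serum, so a count of 0 among 5 genes sets them apart in neither. By unadjusted P under 0.05, 1 of the 10 network genes was higher (Mnt) and 1 lower in 2i/LIF, and 3 were higher (Mxd1, Mxd4 and Mxi1) and 2 lower in LIF/serum. DESeq2 called 0 higher and 1 lower in 2i/LIF, and 2 higher (Mxd1 and Mxd4) and 1 lower in LIF/serum. Counts by unadjusted P and by DESeq2, here and for the lists below, have no share of all genes by the same measure beside them. They are therefore not read as results about the network or a list.

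Mxd1, first known as Mad1 and raised as many cells differentiate, had 294 and 226 normalized counts in LIF/serum control and 529 and 419 in LIF/serum Dax1KO. Both Dax1KO libraries were above both controls, with a mean 1.82 times as high. Its log2 fold change was 0.87 ± 0.27 with an adjusted P of 0.0686. In 2i/LIF it had 253 and 161 normalized counts in control and 321 and 258 in Dax1KO, again without overlap, and the log2 fold change was 0.48 ± 0.27 (adjusted P 0.415). Mxd1 lies on chromosome 6, where the median log2 fold change of 1054 tested genes in Dax1KO over control was 0.44 in 2i/LIF and 0.52 in LIF/serum, against -0.03 and 0.00 for the other genes. In LIF/serum 28.3% of the chromosome's genes were called higher and in 2i/LIF 9.87%. Mxd1 stood at percentile 70.9 of these genes in LIF/serum and 54.1 in 2i/LIF. The part of the chromosome in the values of Mxd1 was not tested.

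Mxd4 had 362 and 501 normalized counts in LIF/serum control and 697 and 751 in LIF/serum Dax1KO. The groups did not overlap, and the Dax1KO mean was 1.68 times the control mean. Its log2 fold change was 0.75 ± 0.25 with an adjusted P of 0.0832. In 2i/LIF the libraries, at 344 and 384 in control and 299 and 468 in Dax1KO, overlapped (log2 fold change 0.07 ± 0.25, adjusted P 0.933). The exons of Mxd4 share 514 bases with the antisense gene Gm42846, and whether strand was used in counting is not given in the sources used here, so reads of the pair cannot be told apart. Gm42846 had at most 49.7 normalized counts in any of the 8 libraries and was not called in LIF/serum (log2 fold change 0.25 ± 0.41, adjusted P 0.726) or in any other comparison.

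Mxi1 and Mnt each moved in opposite directions in the 2 media without being called. Mxi1, also known as Mxd2, had 2173 and 2174 normalized counts in 2i/LIF control and 1793 and 1801 in 2i/LIF Dax1KO, but 1680.4 and 1769 in LIF/serum control and 2005 and 2434 in LIF/serum Dax1KO. Both Dax1KO libraries were thus below the controls in 2i/LIF and above them in LIF/serum. The log2 fold changes were -0.27 ± 0.13 (adjusted P 0.311) and 0.36 ± 0.13 (adjusted P 0.0947), and their difference of 0.64 ± 0.18 had an adjusted P of 0.108.

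Mnt, a broadly expressed antagonist of Myc, had the opposite pattern. It had 1511 and 1631 normalized counts in 2i/LIF control and 1815 and 2297 in 2i/LIF Dax1KO, and 1872 and 1791 in LIF/serum control against 1580.4 and 1324 in LIF/serum Dax1KO. The Dax1KO libraries lay above the controls in 2i/LIF and below them in LIF/serum. The log2 fold changes were 0.39 ± 0.15 (adjusted P 0.237) and -0.33 ± 0.15 (adjusted P 0.185), and their difference of -0.72 ± 0.22 had an adjusted P of 0.127.

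Mxd3, which is linked to proliferating cells, did not separate by genotype. It had 729 and 922 normalized counts in 2i/LIF control, 877 and 803 in 2i/LIF Dax1KO, 1012.5 and 1455 in LIF/serum control and 1035 and 1239 in LIF/serum Dax1KO. The log2 fold change was 0.03 ± 0.21 in 2i/LIF (adjusted P 0.978) and -0.12 ± 0.21 in LIF/serum (adjusted P 0.752).

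Mlx had 1241 and 855 normalized counts in 2i/LIF control, 1207 and 511 in 2i/LIF Dax1KO, 2448 and 2392 in LIF/serum control and 1726 and 2334 in LIF/serum Dax1KO. Replicates were far apart in 3 of the 4 groups, and the log2 fold changes by genotype were -0.29 ± 0.37 in 2i/LIF (95% interval -1.13 to 0.56, adjusted P 0.772) and -0.25 ± 0.36 in LIF/serum (95% interval -1.09 to 0.58, adjusted P 0.685). For Max, Mxd1, Mxd3, Mxd4 and Mlx, the differences between media lay between -0.14 and 0.67, with adjusted P from 0.350 to 0.999.

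The media were compared within each genotype, 2i/LIF over LIF/serum. Both comparisons share libraries with those by genotype above. Between control ESCs, 4 of the 10 genes were called (40%), 1 higher and 3 lower in 2i/LIF, where 36.8% of all genes were called, 20.3% higher and 16.5% lower. Between Dax1KO ESCs 5 of the 10 were called (50%), 2 higher and 3 lower, where 28.9% of all genes were called, 15.2% higher and 13.7% lower.

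Myc had by far the largest change of the 10. Its 46.0 to 76.2 normalized counts in 2i/LIF control stood against 1766 and 1783 in LIF/serum control, a mean 0.0344 times as high, and the log2 fold change was -4.86 ± 0.34 with an adjusted P of 5.18e-05. Between Dax1KO ESCs the log2 fold change was -4.26 ± 0.33 with an adjusted P of 0.000103. Across every alternative tried, Myc was called lower in 2i/LIF in both genotypes.

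Mycn went opposite ways in the 2 genotypes. In control ESCs it was lower in 2i/LIF, at 0.530 times the LIF/serum mean (log2 fold change -0.92 ± 0.10, adjusted P 0.000374). In Dax1KO ESCs it was higher in 2i/LIF, at 1.31 times (log2 fold change 0.39 ± 0.10, adjusted P 0.0236). The test of the difference between the media effects is the same as that of the knockout effects given above. The call in Dax1KO ESCs was lost without either 2i/LIF Dax1KO library (adjusted P 0.0932 without replicate 1 and 0.135 without replicate 2) and without either LIF/serum Dax1KO library (0.0727 and 0.122).

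Mycl was higher in 2i/LIF in control ESCs, at 2.10 times the LIF/serum mean (log2 fold change 1.07 ± 0.15, adjusted P 0.00111). In Dax1KO ESCs its log2 fold change was 0.34 ± 0.15 with an adjusted P of 0.130.

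Mlx was lower in 2i/LIF in both genotypes, with log2 fold changes of -1.21 ± 0.37 (adjusted P 0.0344) in control and -1.24 ± 0.37 (adjusted P 0.0379) in Dax1KO ESCs. The libraries of the media did not overlap. In control ESCs the call was lost without either replicate of either control group, with adjusted P of 0.0602 and 0.169 without 2i/LIF control replicates 1 and 2, and 0.102 and 0.0889 without LIF/serum control replicates 1 and 2. In Dax1KO ESCs the log2 fold change ran from -1.99 without 2i/LIF Dax1KO replicate 1 to -0.75 without 2i/LIF Dax1KO replicate 2, and the call was lost without the latter (adjusted P 0.131), either LIF/serum control library (0.0593 and 0.0564) or either LIF/serum Dax1KO library (0.0673 and 0.172). Mlx shares 385 exon bases with Psmc3ip on the opposite strand, which was not called in either media comparison (log2 fold changes 0.18 and -0.43, adjusted P 0.458 and 0.0986). Psmc3ip had 622 to 950 normalized counts. The use of strand in counting is not known, so reads of this pair cannot be told apart.

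Mxd4 and Mnt were called between media in Dax1KO ESCs. Mxd4 was lower in 2i/LIF at 0.529 times the LIF/serum mean (log2 fold change -0.92 ± 0.25, adjusted P 0.0274), while in control ESCs the log2 fold change was -0.24 ± 0.25 (adjusted P 0.481). Mnt was higher in 2i/LIF at 1.42 times (log2 fold change 0.50 ± 0.15, adjusted P 0.0423), against -0.22 ± 0.15 (adjusted P 0.297) in control ESCs. The differences of these effects between genotypes were not called, as given above. Without 2i/LIF Dax1KO replicate 1 or LIF/serum Dax1KO replicate 1 or 2, Mxd4 had adjusted P of 0.151, 0.0808 and 0.112. Mnt kept its call without 2i/LIF Dax1KO replicate 1 and lost it without each other library, with adjusted P from 0.0531 to 0.280 and a log2 fold change as low as 0.32 without 2i/LIF Dax1KO replicate 2.

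The other 4 genes were not called between media. Max had log2 fold changes of -0.33 ± 0.19 in control (adjusted P 0.211) and -0.42 ± 0.19 in Dax1KO ESCs (adjusted P 0.142). Mxd1 had -0.33 ± 0.27 (adjusted P 0.380) and -0.71 ± 0.27 (adjusted P 0.0841). Mxi1 had 0.33 ± 0.13 (adjusted P 0.0730) and -0.30 ± 0.13 (adjusted P 0.111). Mxd3 had -0.58 ± 0.21 (adjusted P 0.0619) and -0.44 ± 0.21 (adjusted P 0.161), and its libraries did not overlap between media in either genotype. Without LIF/serum control replicate 1, Mxd3 was called lower in 2i/LIF in control ESCs (log2 fold change -0.82, adjusted P 0.0232). Mxd3 shares 105 exon bases with Prelid1 on the other strand, which was called lower in 2i/LIF in both genotypes (log2 fold changes -0.65 and -0.50, adjusted P 0.0141 and 0.0479). Prelid1 had 8277 to 14949 normalized counts, far above Mxd3. The use of strand in counting is not known, so reads of the pair cannot be told apart. The part of Prelid1 in the values of Mxd3 was not tested.

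**Figure D4:**
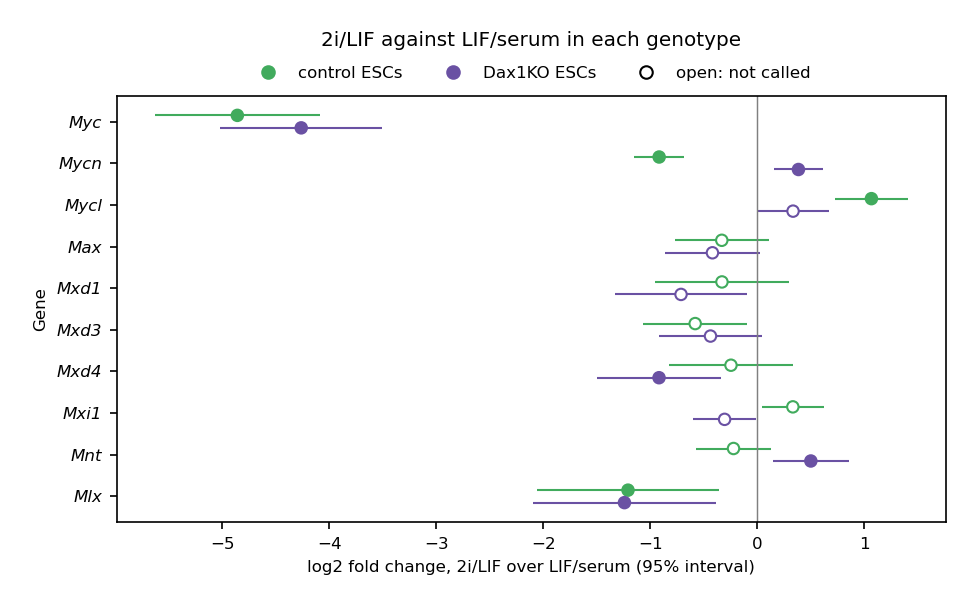
Log2 fold change of each gene, 2i/LIF over LIF/serum, in control and in Dax1KO ESCs; bars are 95% intervals and filled points are called genes. Myc lies at -4.86 and -4.26, and Mycn lies at -0.92 in control and 0.39 in Dax1KO ESCs.

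Partners and cofactors of the network were listed by name, 31 genes, all tested. Their median log2 fold change is given here beside that of all genes. In LIF/serum 0 of 31 were called higher and 3 lower in Dax1KO (9.68%, below the 14.7% of all genes, median -0.11 against 0.01), where an unadjusted P under 0.05 gave 2 higher and 7 lower and DESeq2 gave 1 and 5. The 3 were Hells, a chromatin remodeller (-0.64 ± 0.18, adjusted P 0.0479), L3mbtl2, a member of the complex of Mga, Max and Pcgf6 (-0.47 ± 0.11, adjusted P 0.0314), and Actl6a, a subunit of chromatin remodelling complexes (-0.45 ± 0.10, adjusted P 0.0255). These calls were lost altogether without either library of 2i/LIF Dax1KO or of LIF/serum Dax1KO, where 3.33% to 8.48% of all genes were called. Without LIF/serum control replicate 1, 1 was called (3.23%, beside 9.3%), and without 2i/LIF control replicate 2, 5 (16.1%, beside 11.4%).

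In 2i/LIF, 0 of 31 cofactors were called higher in Dax1KO and 1 was called lower (3.23%, beside 3.16% of all genes, median -0.07 against -0.01), against 1 higher and 7 lower by unadjusted P and 0 and 2 by DESeq2. The 1 called was Wdr5, a chromatin scaffold that binds Myc (log2 fold change -0.74 ± 0.11, adjusted P 0.0182), and 0 were called when any of the 4 libraries in 2i/LIF was left out (beside 0.174% to 0.758% of all genes). The knockout effect on Wdr5 differed between media (0.93 ± 0.16, adjusted P 0.0298, 1 gene of the 31 or 3.23%, beside 2.87% of all genes, median 0.01 against 0.02), a call lost without any library but LIF/serum control replicate 1. Between media, 5 were higher and 9 lower in 2i/LIF control ESCs (45.2%, beside 36.8% of all genes, median -0.04 against 0.01), and 2 higher and 10 lower in Dax1KO ESCs (38.7%, beside 28.9%, median -0.04 against 0.01). Mlxipl, which pairs with Mlx in the glucose response, was higher in 2i/LIF in both genotypes (1.43 ± 0.22, adjusted P 0.00187, and 1.11 ± 0.22, adjusted P 0.00732). L3mbtl2 was lower in both (-1.09 ± 0.11, adjusted P 0.000294, and -0.70 ± 0.11, adjusted P 0.00316), as was Ppp2r5a, a subunit of phosphatase PP2A (-1.10 ± 0.12, adjusted P 0.000330, and -1.01 ± 0.12, adjusted P 0.000689). So was Usp28, a deubiquitinase of Myc (-0.80 ± 0.11, adjusted P 0.00101, and -1.36 ± 0.11, adjusted P 0.000128), and the difference between genotypes was not called (0.56 ± 0.15, adjusted P 0.103). Wdr5 was higher in control ESCs (1.16 ± 0.11, adjusted P 0.000214), against 0.23 ± 0.11 (adjusted P 0.165) in Dax1KO ESCs. Without 2i/LIF control replicate 2, 9 cofactors were called between media in control ESCs (29%, beside 23.1% of all genes), and without a library of either Dax1KO group 6 or 7 in Dax1KO ESCs (19.4% or 22.6%, beside 13.7% to 16.9%).

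The 45 listed genes that Myc is known to induce were all tested. In LIF/serum, 14 of 45 were called lower in Dax1KO and 1 higher (33.3%), beside 14.7% of all genes, 5.78% lower and 8.87% higher, with a median log2 fold change of -0.29 against 0.01 for all genes, and 37 of 45 lay below 0. Those with the largest changes were Ccnd1, cyclin D1 (-1.42 ± 0.18, adjusted P 0.00382), Nop58, a box C/D snoRNP protein of ribosome production (-0.89 ± 0.15, adjusted P 0.00975), and Apex1, a DNA repair endonuclease (-0.84 ± 0.13, adjusted P 0.00665). Mthfd2, an enzyme of mitochondrial folate metabolism on chromosome 6, was the 1 called higher (0.90 ± 0.13, adjusted P 0.00574). Without LIF/serum Dax1KO replicate 1, 9 were called (20%, beside 6.62% of all genes), and without LIF/serum Dax1KO replicate 2, 5 (11.1%, beside 3.33%). Mycn, the most abundant Myc family transcript, fell in the same comparison, and 6 of the 8 primitive endoderm markers were called higher (75%). The part of either in these values was not tested.

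In 2i/LIF, 2 of the 45 induced genes were called higher and 2 lower in Dax1KO (8.89%, beside 3.16% of all genes, median -0.11 against -0.01). Ccnd1 (-2.12 ± 0.18, adjusted P 0.00436) and Apex1 (-0.69 ± 0.13, adjusted P 0.0325) were lower, and Tert, the reverse transcriptase of telomerase (0.77 ± 0.15, adjusted P 0.0419), and Mthfd2 (0.61 ± 0.13, adjusted P 0.0460) were higher. When any library of 2i/LIF or of LIF/serum Dax1KO was left out, 1 was called (2.22%, beside 0.174% to 1.55% of all genes). The difference between media was called for 0 genes in the higher and 2 in the lower direction (4.44%, beside 2.87% of all genes, median -0.17 against 0.02), the nucleolar genes Gnl3 (-0.70 ± 0.14, adjusted P 0.0419) and Ncl (-0.70 ± 0.15, adjusted P 0.0476). An unadjusted P under 0.05 gave 2 in the higher and 12 in the lower direction, and DESeq2 gave 0 and 2. The 2.87% is no background for these counts, and the share of all genes by either measure is not given here. With any 1 library left out, 0 or 1 was called (only without LIF/serum control replicate 1 was it 1), beside 0.165% to 1.57% of all genes.

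Between media, the induced genes were mostly lower in 2i/LIF in control ESCs, where 25 of 45 were called lower and 3 higher (62.2%, beside 36.8% of all genes, 16.5% lower and 20.3% higher, median -0.55 against 0.01). Ccnd2, cyclin D2 (-3.66 ± 0.36, adjusted P 0.000236), the glucose transporter gene Slc2a1 (-2.12 ± 0.41, adjusted P 0.00495), Gnl3 (-1.14 ± 0.10, adjusted P 0.000128) and the lactate dehydrogenase gene Ldha (-1.13 ± 0.28, adjusted P 0.0161) changed most. In Dax1KO ESCs 15 were lower and 2 higher (37.8%, beside 28.9% of all genes, median -0.19 against 0.01). There Ccnd2 (-2.62 ± 0.35, adjusted P 0.00126), Ldha (-1.48 ± 0.29, adjusted P 0.00676), Slc2a1 (-1.32 ± 0.40, adjusted P 0.0385) and the pyruvate kinase gene Pkm (-1.01 ± 0.18, adjusted P 0.00501) changed most. This share depended on the libraries. Without 2i/LIF Dax1KO replicates 1 and 2, 4 and 6 were called (8.89% and 13.3%), below the 15.8% and 13.7% of all genes called in the same fits. Without LIF/serum Dax1KO replicates 1 and 2, 8 and 9 were called (17.8% and 20%), beside 16.7% and 16.9% of all genes, so in Dax1KO ESCs the share of the list lay near or below that of all genes in these 4 fits.

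Of 7 genes that Myc is known to repress with Miz1, 2 were called higher in Dax1KO in LIF/serum and 0 lower (28.6%, beside 14.7% of all genes, median 0.71 against 0.01), where an unadjusted P under 0.05 gave 4 higher and 0 lower and DESeq2 gave 3 and 0. The median is the value of Cdkn1b (0.71 ± 0.23, adjusted P 0.0782), which lies on chromosome 6, where the median was 0.52. The 2 called genes were inhibitors of cyclin-dependent kinases, Cdkn1a (1.14 ± 0.15, adjusted P 0.00446) and Cdkn2b (1.01 ± 0.23, adjusted P 0.0273), and 1 was called without either 2i/LIF Dax1KO library, LIF/serum control replicate 1 or LIF/serum Dax1KO replicate 2 (14.3%, beside 3.33% to 9.3% of all genes). In 2i/LIF 0 of 7 were called, beside 3.16% of all genes (median 0.50 against -0.01). This median too is the value of Cdkn1b (0.50 ± 0.23, adjusted P 0.311), beside a chromosome 6 median of 0.44, and the part of the chromosome in either list median was not tested. An unadjusted P under 0.05 gave 2 higher and 0 lower, and DESeq2 1 and 0. The smallest P was that of Gadd45a, a stress-response gene on chromosome 6 (0.72 ± 0.18, adjusted P 0.0726). The knockout effect on Cdkn1a differed between media (1.37 ± 0.21, adjusted P 0.0224, 1 gene of the 7 or 14.3%, beside 2.87% of all genes, median 0.63 against 0.02), and this call was lost without any library but 2i/LIF control replicate 2 and LIF/serum control replicate 2.

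Between media, 2 of the 7 were higher and 2 lower in 2i/LIF in each genotype (57.1%, beside 36.8% of all genes in control and 28.9% in Dax1KO ESCs), with medians of -0.44 in control and -0.22 in Dax1KO ESCs against 0.01. In control ESCs Cdkn2b (1.89 ± 0.24, adjusted P 0.000643) and Cdkn1a (1.51 ± 0.15, adjusted P 0.000239) were higher, while Ndrg2 (-1.16 ± 0.36, adjusted P 0.0366) and Gadd45a (-1.07 ± 0.18, adjusted P 0.00246) were lower. In Dax1KO ESCs Gadd45g (1.13 ± 0.36, adjusted P 0.0463) and Cdkn2b (1.08 ± 0.23, adjusted P 0.00948) were higher, while Ndrg2 (-1.79 ± 0.36, adjusted P 0.00841) and the kinase inhibitor Cdkn1b (-0.85 ± 0.23, adjusted P 0.0279) were lower. In Dax1KO ESCs 1 and 0 were called without 2i/LIF Dax1KO replicates 1 and 2 (14.3% and 0%, beside 15.8% and 13.7% of all genes), and 2 and 1 without LIF/serum Dax1KO replicates 1 and 2 (28.6% and 14.3%, beside 16.7% and 16.9%). The share of the list was thus below that of all genes in 3 of these 4 fits.

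Of 6 targets of Mlx with its glucose-responsive partners, 0 were called in Dax1KO in 2i/LIF (beside 3.16% of all genes, median -0.05 against -0.01), where an unadjusted P under 0.05 gave 1 higher and 1 lower and DESeq2 gave 1 and 0. The smallest P was that of Arrdc4 (0.72 ± 0.23, adjusted P 0.146), and 1 gene was called without 2i/LIF control replicate 2 (16.7%, beside 0.758% of all genes). In LIF/serum 1 was called higher and 0 lower (16.7%, beside 14.7% of all genes, median 0.27 against 0.01), where an unadjusted P and DESeq2 each gave 2 higher and 0 lower. The 1 called was Tkfc, triokinase (0.91 ± 0.15, adjusted P 0.00944), and 0 were called without LIF/serum Dax1KO replicate 2 (beside 3.33% of all genes). Its knockout effect differed between media (1.16 ± 0.21, adjusted P 0.0372, 1 gene of the 6 or 16.7%, beside 2.87% of all genes, median 0.51 against 0.02), a call lost without any library but LIF/serum control replicate 1.

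In 2i/LIF against LIF/serum, Txnip, a thioredoxin-binding arrestin that restrains glucose uptake, was higher in control ESCs (2.15 ± 0.28, adjusted P 0.000755) and in Dax1KO ESCs (1.53 ± 0.27, adjusted P 0.00451), as was its relative Arrdc4 (0.99 ± 0.23, adjusted P 0.0119, and 1.27 ± 0.23, adjusted P 0.00524). Klf10 was also higher in both (0.49 ± 0.16, adjusted P 0.0438, and 0.56 ± 0.16, adjusted P 0.0312). In control ESCs Tkfc (0.48 ± 0.15, adjusted P 0.0383) was higher too, so 4 of 6 were called higher and 0 lower (66.7%, beside 36.8% of all genes, median 0.48 against 0.01), with 4 higher and 0 lower by unadjusted P and by DESeq2. In Dax1KO ESCs 3 were higher and 2 lower (83.3%, beside 28.9% of all genes, median 0.29 against 0.01), the lower ones being Pklr, pyruvate kinase of liver and red cells (-1.90 ± 0.43, adjusted P 0.0128), and Tkfc (-0.68 ± 0.15, adjusted P 0.0123). Pklr was low throughout this comparison, with mean normalized counts of 15.1 in 2i/LIF Dax1KO and 56.9 in LIF/serum Dax1KO. In control ESCs 1 to 3 were called when any 1 library was left out (16.7% to 50%, beside 23.1% to 32.6% of all genes). In Dax1KO ESCs 2 were called without either 2i/LIF Dax1KO library (33.3%, beside 15.8% and 13.7%) and 3 without either LIF/serum Dax1KO library (50%, beside 16.7% and 16.9%). Mlx itself was lower in 2i/LIF in both genotypes.

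**Figure D5:**
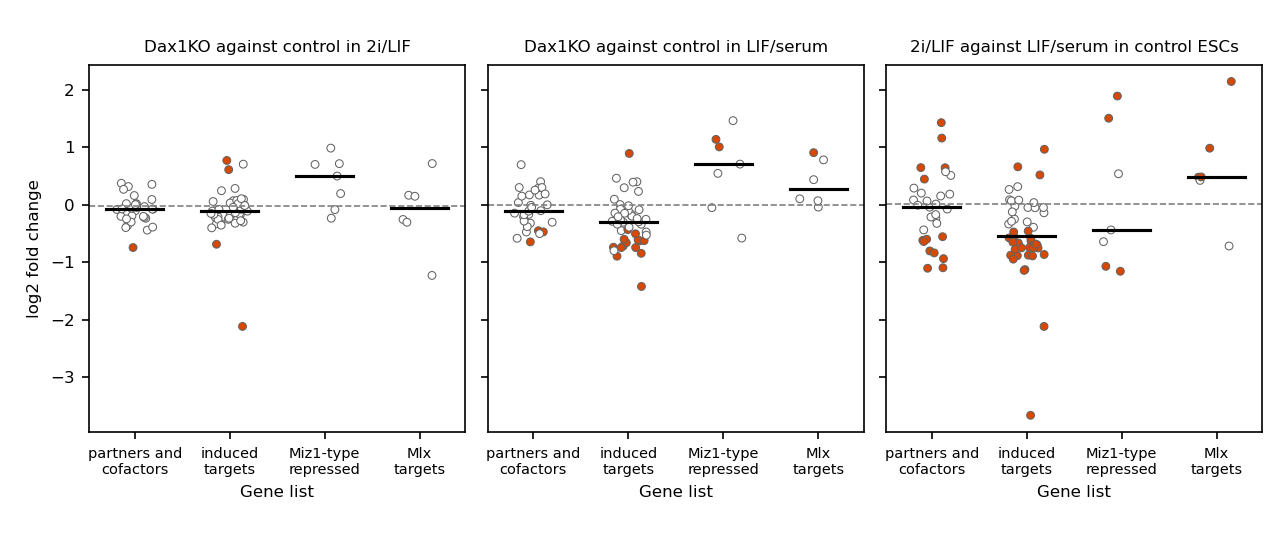
Log2 fold change of each gene of the 4 lists (vertical axis) in 3 comparisons; points are genes, filled where called, bars are list medians and the dashed line is the median of all 20749 genes. The induced targets have medians of -0.11, -0.29 and -0.55 from left to right.

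The genes whose log2 CPM ran most like those of each Myc gene over the 8 libraries were picked by Pearson correlation among 15653 protein-coding genes. For Myc they were Ptprn (r = 0.998), Hmces (0.996) and Ak7 (0.995). For Mycn they were Cdyl (0.986), Dnaja1 (0.984) and Naa15 (0.982), and for Mycl they were Meis2 (0.991), Nptx1 (0.985) and Gm4737 (0.981). The 8 points are 4 groups of 2 libraries, so these values describe the group pattern mainly. Meis2 had mean normalized counts of 1194 in 2i/LIF control, 401 in 2i/LIF Dax1KO, 185 in LIF/serum control and 215 in LIF/serum Dax1KO, and was highest in 2i/LIF control, as Mycl was. Ptprn, at 27.0, 22.4, 262 and 173 in the same order, was low in 2i/LIF and highest in LIF/serum control, as Myc was.

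On GRCm38, the identifiers and positions were ENSMUSG00000022346.15 for Myc (chr15:61985391-61990374, plus strand), ENSMUSG00000037169.15 for Mycn (chr12:12936093-12941914, minus strand) and ENSMUSG00000028654.13 for Mycl (chr4:122995652-123002485, plus strand). Max was ENSMUSG00000059436.13 (chr12:76937269-76962201, minus strand). Mxd1 was ENSMUSG00000001156.9 (chr6:86647042-86669161, minus strand), Mxd3 was ENSMUSG00000021485.14 (chr13:55325168-55329823, minus strand), Mxd4 was ENSMUSG00000037235.13 (chr5:34173883-34187720, minus strand), Mxi1 was ENSMUSG00000025025.13 (chr19:53310518-53375810, plus strand) and Mnt was ENSMUSG00000000282.12 (chr11:74830920-74845725, plus strand). Mlx was ENSMUSG00000017801.15 (chr11:101087277-101092207, plus strand). Mxi1 shares 194 exon bases with Gm10197 on the other strand, which was not called in any comparison. Gm10197 had 65.2 to 150 normalized counts, and reads of this pair cannot be told apart either.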

How the data were processed

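Messenger RNA of 8 libraries was sequenced on an Illumina HiSeq instrument. The authors deposited whole-number counts per gene and library, without normalization. The submitters' processing notes name HISAT2 2.0.4, DESeq2 and build mm10, while the counting tool, its annotation and its use of strand are not given in the sources used here. Libraries were grouped by their titles. Of the 52550 gene identifiers, 52403 were found in GENCODE M21 (GRCm38), 49035 with the same version, which gave symbols, positions, exon lengths and overlaps. Low counts piled up at 3 and 6, so a low count need not be that many independent fragments.

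Tests were run in edgeR 4.0.16 under R 4.3.3 with filterByExpr, TMM factors of 0.960 to 1.04, a single quasi-likelihood fit over the 4 groups and Benjamini-Hochberg adjustment. The biological coefficient of variation was 20.9% and the prior degrees of freedom 4.04. The standard error is the absolute log2 fold change divided by the square root of F. On simulated data with 200 changed genes, 53.5% were recovered in 2i/LIF among 20205 genes and 49.5% in LIF/serum among 20204, with 2 false calls of 109 and 4 of 103. The changes were planted at log2 fold changes of 1 or 2 in size, so recovery of smaller changes was not tested. No libraries were duplicates. Transcripts of the network were aligned to all others with blastn 2.17.0 at an identity of at least 95%, and no other near-identical copy was found apart from the overlaps named. Alternatives were DESeq2 1.42.0, RLE factors, no filter, at least 10 counts in every library, a test against a fold change of 1.2, separate fits by medium, the replicate block and each library left out. Counts over lists and over all genes under these settings, and the sums, were added after seeing the data.

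The 10 genes and all lists were chosen with earlier results of these data known. All 10 are named in each comparison, and from each other list up to 4 called genes with the largest change, or the gene with the smallest P where fewer than 2 were called. Beyond this rule, Usp28, Wdr5 and Klf10 are named between media in both genotypes, and Cdkn1b where it is the list median. The lists were the partners and cofactors, the induced, Miz1-repressed and Mlx targets, and markers of ESCs, primitive endoderm, trophectoderm (summed level 46.8 to 108 CPM, Cdx2 at 0 in 2i/LIF), neural ectoderm (28.1 to 88.0), mesoderm (0.585 to 3.36) and fibroblasts or feeders (15.8 to 67.1, with Dcn, Col3a1, Lum and Postn at 0 in some groups). No table held protein sequences of the network.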

Additional observations from a re-analysis of the deposited data

Results flagged for a closer look

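Among the network genes and the lists of partners, cofactors and targets, the knockout effect differed between media for 6 genes. The test was edgeR's quasi-likelihood test of the difference with Benjamini-Hochberg adjustment, and each was set aside for that reason. By the same test 596 of all 20749 genes were called (2.87%). Each of the 6 calls was lost in some fits that left out a single library, as given above. The differences of the log2 fold changes were -1.30 for Mycn (adjusted P 0.00876), 0.93 for Wdr5 (0.0298), -0.70 for Gnl3 (0.0419), -0.70 for Ncl (0.0476), 1.37 for Cdkn1a (0.0224) and 1.16 for Tkfc (0.0372).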

How the results depend on the processing

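The number of genes called over the whole table also changed with the setting, as given below. Changed counts in this section are therefore not read as particular to the listed genes. Of 50 log2 fold changes of the 10 genes, 12 were called. None of these 12 changed direction in any alternative, and 7 lost the call in at least 1. The gene called in 2i/LIF, Mycl, gave a count of 0 with no filter on low counts, when tested against a fold change of 1.2, in a separate fit and without any 1 library (0 to 0). In LIF/serum the count was 3 with DESeq2 and 3 with the replicate block, which added Mxd1 (adjusted P 0.0252 and 0.0209) and Mxd4 (0.0310 and 0.0364), and 1 to 1 with a library left out. In Dax1KO ESCs the 5 calls between media became 2 with no filter, 2 against a fold change of 1.2 and 1 to 4 with a library left out, and in control ESCs the 4 calls became 3 to 4. The difference between media gave 0 to 1. The replicate block kept the counts of 1 in 2i/LIF and 1 for the difference, gave 5 and 5 between media, and swapped Mnt (adjusted P 0.0557) for Mxd1 (0.0214) in Dax1KO ESCs. Same-numbered deviations from the group mean correlated at -0.0150 to 0.108 between groups over all tested genes. With 2 libraries per group, these values cannot decide whether the numbers pair the libraries. In the control media comparison Mxd3 was called with at least 10 counts (adjusted P 0.0430), DESeq2 (0.0331) and the block (0.0409).

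Signs changed in 22 of 670 recomputed values, for 9 uncalled results. Mycl in LIF/serum became -0.00392 with at least 10 counts and -0.000560 in a separate fit. With a library left out, Myc in 2i/LIF ranged from -0.39 to 0.32, Mxd3 from -0.13 to 0.22, Mxd4 from -0.29 to 0.36 and Mlx from -1.04 to 0.20. In LIF/serum Mycl ranged from -0.0708 to 0.10 and Mxd3 from -0.36 to 0.16. The difference between media ranged from -0.16 to 0.33 for Max, -0.38 to 0.13 for Mxd3 and -0.45 to 0.79 for Mlx. The cause of these changes was not tested.

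Of the induced targets, the 4 calls in 2i/LIF became 1 with no filter or against a fold change of 1.2 and 2 with the block or a separate fit, the 17 between media in Dax1KO ESCs became 8 against a fold change of 1.2, and the 2 for the difference became 0 with no filter. Of the cofactors, the 3 in LIF/serum became 1 with no filter, 0 against a fold change of 1.2 and 6 with DESeq2, the 1 in 2i/LIF became 0 with no filter and 2 with DESeq2, and the 12 in Dax1KO ESCs became 7 against a fold change of 1.2. Of the Miz1-repressed genes, the 2 in LIF/serum became 4 with the block and 1 with no filter, against a fold change of 1.2 or in a separate fit. The 4 Mlx targets higher in control ESCs became 2 with RLE factors, no filter or a fold change of 1.2.

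Genes called over the whole table numbered 656 in 2i/LIF, against 121 with no filter, 1281 with DESeq2 and 38 to 673 with a library left out. In LIF/serum 3041 were called, against 1842 with no filter, 1693 against a fold change of 1.2 and 728 to 2496 with a library left out. The difference between media had 596, against 119 with no filter, 1292 with DESeq2 and 36 to 344 with a library left out. With the longest transcript as length, 7, 7, 8 and 8 of the 10 genes kept their place in the order of levels in 2i/LIF control, 2i/LIF Dax1KO, LIF/serum control and LIF/serum Dax1KO, and Max replaced Mlx as the highest gene in LIF/serum Dax1KO. The Myc family sum in Dax1KO over control in LIF/serum, 0.436, stayed between 0.397 and 0.474.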
